A study of Sus scrofa with 15 samples.

Results

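The genes of Polycomb repressive complex 2 (PRC2) and of the enzymes that remove its mark were examined here in pig somatic cell nuclear transfer (SCNT) embryos and in the donor fibroblasts. The set was taken by gene symbol and held 10 genes, 8 of PRC2 (EZH1, EZH2, EED, SUZ12, JARID2, AEBP2, RBBP4 and RBBP7) and 2 demethylases (KDM6A and KDM6B). All 10 were found among the 28224 known genes of the table, which held 43294 features in all. PRC2 places methyl groups on lysine 27 of histone H3 (H3K27), a mark of silenced chromatin. EZH1 and EZH2 are its alternative catalytic subunits, EED and SUZ12 are needed by either of them, and KDM6A and KDM6B take the mark off again. In embryos made by nuclear transfer the mark arrives with the donor nucleus, and both its writers and its erasers are supplied by RNA from the oocyte and from the embryo's own genome.

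Each of the 5 groups held 3 RNA-seq libraries. PFF were primary porcine fetal fibroblasts at passages 2 to 5, the donor cells. SCNT4c and SCNT8c were SCNT embryos at the 4-cell and 8-cell stage without further treatment. SCNT4c-KG embryos were injected with KDM4A mRNA (1000 ng/µl) 5 h after activation and kept in 0.1 µM GSK126, an inhibitor of the EZH2 enzyme, from 0 to 48 h, and KDM4A is a demethylase of lysine 9 of histone H3. SCNT4c-TDG embryos came from a PFF line that was selected with puromycin for a vector that expresses TDG, a DNA glycosylase of active demethylation, under doxycycline, and they were given doxycycline (500 ng/ml) from 40 to 72 h. Embryo libraries were pools of 30. Libraries of embryos given doxycycline without the TDG vector were not analysed here, so TDG, the drug and the selected line cannot be told apart, nor can KDM4A mRNA and GSK126. The sources used here do not say whether the libraries of a group came from separate transfer sessions, so p-values measure the spread between these libraries only.

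Values are normalized read counts, and the reads behind them could be recovered as whole numbers. Recovered reads per library ranged from 12354649 to 15390472 in SCNT4c-KG and from 17757929 to 22868038 in the other groups, so low genes are least precise in SCNT4c-KG. KDM4A, listed at 313, 136 and 134 in SCNT4c, was at 1437, 1476 and 1429 in SCNT4c-KG, and TDG, at 939 to 2541 in SCNT4c, was at 49857 to 59944 in SCNT4c-TDG. Each was also called higher in the other treated group, KDM4A by 2.08 ± 0.48 on the log2 scale in SCNT4c-TDG (adjusted p = 0.00375) and TDG by 1.46 ± 0.31 in SCNT4c-KG (adjusted p = 0.00195). SCNT8c replicate 3 stood apart, since its mean Pearson r across 19950 features was 0.873 with the SCNT4c libraries and 0.794 with the other 2 SCNT8c libraries, and counts and ratios of SCNT8c are given with and without it. Since it also enters the spread of the joint fit of the embryo libraries, the counts of called genes in the treated groups are given without it too. The 10 fibroblast markers summed to at least 3864950 in PFF, and to 4263 to 5460 in SCNT4c, 2485 to 3612 in SCNT4c-KG, 1626 to 2153 in SCNT4c-TDG and 2155 to 2448 in SCNT8c. Of the 10 oocyte markers, BMP15, GDF9 and MOS were at 0 in all embryos, and the list summed to 72493 to 92362 in SCNT4c, 26316 to 50958 in SCNT4c-KG, 11237 to 16949 in SCNT4c-TDG and 38259 to 47466 in SCNT8c. In the same order, the 9 cumulus cell markers in the table summed to 1419 to 1837, 946 to 1203, 516 to 646 and 1430 to 1951, with PTX3 at 0 throughout. ZP4 carried most of the oocyte sum (63365 to 85407 in SCNT4c and 22429 to 46073 in SCNT4c-KG) and INHBA most of the cumulus sum, while ZP3, OOEP and STAR were higher in SCNT4c-KG than in SCNT4c. Of the fibroblast list, COL1A2 was at 2218 to 2755 in SCNT4c and at 367 to 581 in SCNT4c-KG. VIM (1210 to 1663 against 272 to 619) and THY1 (428 to 843 against 69.7 to 170) were instead higher in SCNT4c-KG than in SCNT4c. VIM was also higher in SCNT4c-TDG (647 to 927). The sums thus moved with the groups but single markers did not all follow them, and their part in the results below was not tested. In pooled embryos, fewer cells of a type and less RNA per cell cannot be told apart.

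By the RefSeq annotation of Sscrofa11.1, the catalytic subunits lie at chr12:20107744-20139764 on the plus strand (EZH1) and chr9:109384976-109450943 on the plus strand (EZH2). SUZ12 lies at chr12:42983597-43032671 on the minus strand, where it overlaps CRLF3, and AEBP2 at chr5:53617362-53691487 on the minus strand. EZH1, EED, RBBP4 and KDM6B overlap other annotated genes as well. KDM6A and RBBP7 are on the X chromosome. The 250 bases before the annotated start of EZH2, AEBP2 and SUZ12 are shown because EZH2 and AEBP2 were called higher in both treated groups, while SUZ12 had opposite signs in them. Capitals mark the CCAAT box (CCAAT, or ATTGG on the other strand) and an E2F-type motif (TTTCCCGC, TTTGGCGC, TTTCGCGC or TTTGCCGC on either strand). Sequences run 5′ to 3′ on the strand of the gene.
EZH2: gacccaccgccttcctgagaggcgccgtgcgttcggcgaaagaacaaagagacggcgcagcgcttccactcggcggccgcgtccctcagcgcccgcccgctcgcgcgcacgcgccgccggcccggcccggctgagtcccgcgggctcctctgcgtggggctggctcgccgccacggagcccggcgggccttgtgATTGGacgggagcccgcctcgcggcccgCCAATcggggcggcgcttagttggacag
AEBP2: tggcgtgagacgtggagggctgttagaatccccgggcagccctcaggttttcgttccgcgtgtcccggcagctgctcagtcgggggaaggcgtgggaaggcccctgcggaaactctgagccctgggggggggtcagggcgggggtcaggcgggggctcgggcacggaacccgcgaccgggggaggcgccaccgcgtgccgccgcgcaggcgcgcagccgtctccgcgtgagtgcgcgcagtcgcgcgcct
SUZ12: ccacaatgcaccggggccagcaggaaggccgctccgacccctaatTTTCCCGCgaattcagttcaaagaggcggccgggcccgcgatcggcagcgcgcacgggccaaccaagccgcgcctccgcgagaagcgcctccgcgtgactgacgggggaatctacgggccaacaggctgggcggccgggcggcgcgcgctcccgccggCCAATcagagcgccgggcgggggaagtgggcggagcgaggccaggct
Among windows of the same length before 19559 genes, 31.9% held CCAAT and 2.81% held one of the E2F-type motifs. The EZH2 window (chr9:109384726-109384975) held CCAAT 2 times, the SUZ12 window (chr12:43032672-43032921) held CCAAT and TTTCCCGC 1 time each, and the AEBP2 window (chr5:53691488-53691737) held neither. Of the 10 genes, 4 had CCAAT and 1 had an E2F-type motif in this window. CpG dinucleotides numbered 41 before EZH2, 33 before AEBP2 and 35 before SUZ12 against a median of 12 over all windows, and 7 of the 10 genes lay above that median. EED was an exception with 2 CpG and a GC content of 33.2%, which describes only the window before its annotated start.

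Levels of the named entries can be compared after division by the length of the annotated exons. At the loci of JARID2, KDM6A and KDM6B, assembled transcripts without a gene name held further reads, so their values per kb rank the entries and not the loci. On this scale of normalized value per kb, the histone-binding subunits RBBP4 and RBBP7, which also serve other chromatin complexes, were highest in SCNT4c, at 11056 ± 3598 and 3939 ± 708 (SD, n = 3). EED stood at 751 ± 429, SUZ12 at 312 ± 65.1 and AEBP2, a partner that stabilizes the complex, at 274 ± 150. The catalytic subunits were lower and close to each other, EZH2 at 99.5 ± 4.92 and EZH1 at 81.5 ± 11.8. KDM6A stood at 11.2 ± 1.84, JARID2, a partner that guides PRC2 to chromatin, at 6.40 ± 0.920, and KDM6B at 0.434 ± 0.419. The annotated exons of JARID2 sum to 25956 bases, far more than its coding length of 3931, which lowers its value per kb. In PFF the order of the catalytic subunits was the other way round, with EZH1 at 434 ± 15.5 and EZH2 at 126 ± 1.52 per kb. The plot of the 10 genes by library shows the normalized values without division by length.

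**Figure D1:**
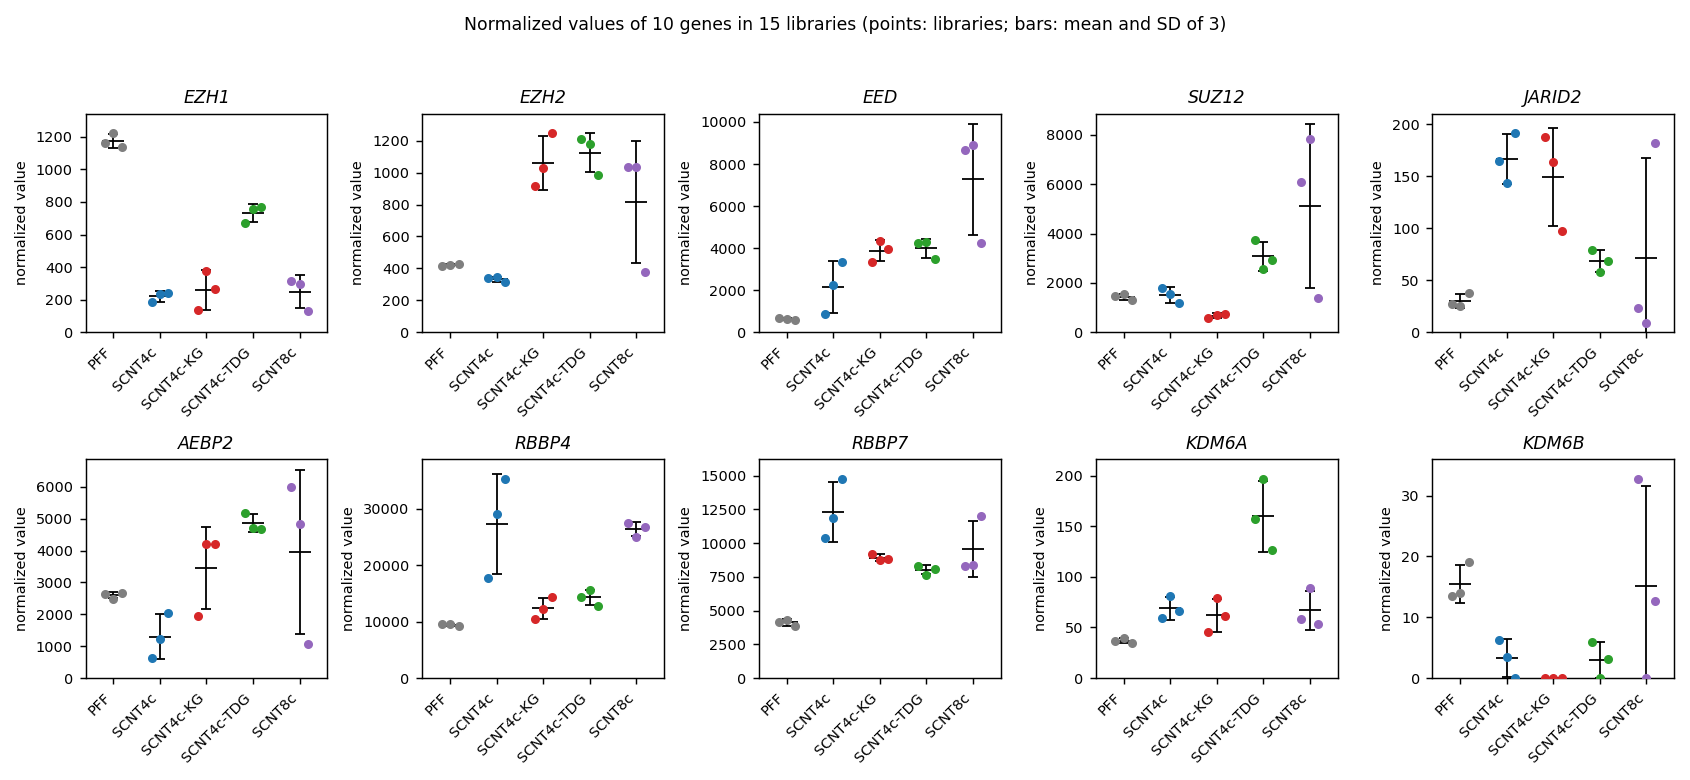
Normalized value (vertical axis, linear from 0, a scale of its own for each gene) of the 10 genes in the 15 libraries. Points are libraries and black marks are the mean and SD of 3 libraries. EZH2 was between 915 and 1245 in SCNT4c-KG and between 983 and 1208 in SCNT4c-TDG, above all SCNT4c libraries, while SCNT8c replicate 3 lay near SCNT4c for EZH2, SUZ12, AEBP2 and JARID2.

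In embryos given KDM4A mRNA and GSK126, the RNA of EZH2 and AEBP2 rose and that of RBBP4 fell. EZH2 stood at 339.9, 344 and 314 in SCNT4c and at 915, 1027 and 1245 in SCNT4c-KG. All treated libraries were above all untreated ones, and the log2 fold change was 1.66 ± 0.38 (SE) with an adjusted p of 0.00319. EZH2 is the protein that GSK126 binds, and these values are of its RNA. RBBP4 was at 17702, 29054 and 35238 in SCNT4c and at 10538, 12209 and 14314 in SCNT4c-KG. No treated library reached the lowest untreated one, and the log2 fold change was -1.10 ± 0.26 with an adjusted p of 0.00408. AEBP2 was at 633, 1226 and 2048 in SCNT4c and at 1960.2, 4198 and 4201 in SCNT4c-KG. These groups overlapped, and the log2 fold change of 1.48 ± 0.56 had an adjusted p of 0.0486. The call of AEBP2 was lost in 9 of 19 alternatives, over which the adjusted p ranged from 0.00418 to 0.200, and it lay above 0.05 without SCNT4c replicate a (0.200), SCNT4c replicate b (0.0958) or either of replicates 2 and 3 of SCNT4c-KG (0.143 each), and also by edgeR (0.0922). RBBP4 kept an adjusted p under 0.05 in all 19 alternatives, but its log2 fold change was -0.89 without SCNT4c replicate c and -0.99 without SCNT4c-KG replicate 1, short of the 2-fold limit.

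Of the 9 genes tested in this comparison, 2 rose and 1 fell, beside 17.6% of all features that rose and 19.6% that fell (37.2% in either direction), so the share of called genes was near that of the table. With SCNT8c replicate 3 left out of the fit, 3 rose and 2 fell, with EED added as higher and SUZ12 as lower, beside 20.6% and 23.9% of all features (44.5% in either direction). KDM6B did not pass the minimum mean of 10 and was not tested. The libraries of both groups did not overlap for 4 of the 9 genes, beside 53.9% of all features. The median log2 fold change of the 9 genes was -0.17 beside -0.30 over all 18942 features. SUZ12, at 1806, 1559.8 and 1178 in SCNT4c, was at 582, 706 and 745 in SCNT4c-KG. Its groups did not overlap, and its log2 fold change of -1.15 ± 0.48 had an adjusted p of 0.0722 in the fit of 12 embryo libraries, 0.0363 by edgeR, 0.00467 in a fit of these 2 groups alone and 0.00102 with SCNT8c replicate 3 left out. The other 16 of 19 alternatives did not call it, among them DESeq2 (0.102) and each library of these groups left out (0.0837 to 0.182). EED, which binds the methylated lysine, had a log2 fold change of 1.04 ± 0.41 (adjusted p = 0.0600) with overlapping groups, and this became 0.0171 without SCNT4c replicate c, its highest untreated library, but 0.293 with a log2 fold change of 0.49 without SCNT4c replicate a, its lowest. EZH1 (0.12 ± 0.45), JARID2 (-0.20 ± 0.79), RBBP7 (-0.45 ± 0.23) and KDM6A (-0.17 ± 0.49) had adjusted p-values from 0.138 to 0.864, and for EZH1, JARID2 and KDM6A intervals of 2 SE reach changes of about 2-fold in at least 1 direction.

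In SCNT4c-TDG embryos both catalytic subunits and AEBP2 rose. EZH2 was at 1208, 1179.8 and 983 there, and its log2 fold change over SCNT4c was 1.75 ± 0.38 (adjusted p = 0.00247). EZH1 stood at 184, 238 and 241 in SCNT4c and at 672, 759 and 766 in SCNT4c-TDG. The gap between these groups was wide, and the log2 fold change was 1.73 ± 0.45 with an adjusted p of 0.00781. AEBP2 was at 5177, 4713 and 4688 in SCNT4c-TDG, and rose by 2.06 ± 0.56 on the log2 scale (adjusted p = 0.0109). The AEBP2 call was lost without SCNT4c replicate a, its lowest untreated library, where the adjusted p was 0.0602 and the log2 fold change 1.61. The calls of EZH1 and EZH2 held in each of their 19 alternatives, with adjusted p-values of at most 0.0326 and 0.0143.

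Of the 9 genes tested, 3 rose and 0 fell under TDG, beside 15.7% and 17.6% of all features (33.3% in either direction). With SCNT8c replicate 3 left out of the fit, EED, SUZ12 and KDM6A were added as higher and JARID2 as lower, which made 6 higher and 1 lower, beside 18.5% and 21.7% of all features (40.2% in either direction). At an unadjusted p under 0.05 in limma, 2 genes (RBBP4 and RBBP7) had a negative log2 fold change, and edgeR called 3 higher and 0 lower, beside 29.6% of all features in either direction, and DESeq2 6 higher and 0 lower, beside 36.9%. Libraries did not overlap for 9 of the 9, beside 58.4% of all features, and the median log2 fold change was 1.08 beside -0.26. Giving each library the same total moved the median of all features to 0.0026, and quantile normalization moved it to -0.04. RBBP4, at 14398, 15604 and 12852 in SCNT4c-TDG, had a log2 fold change of -0.88 ± 0.26 with an adjusted p of 0.0163, under the 2-fold limit. It was called lower in 2 of 19 alternatives. With each library left out the value ranged from -1.17 to -0.67, and after quantile normalization it was -0.28 (adjusted p = 0.430). RBBP7, at 7663 to 8306 in SCNT4c-TDG and 10370.3 to 14729.8 in SCNT4c, had -0.61 ± 0.23 (adjusted p = 0.0574). EED (1.08 ± 0.41, adjusted p = 0.0550) was called by DESeq2 (0.0373) and in 8 other alternatives of 19. It was not called by edgeR (0.90, adjusted p = 0.123), and without SCNT4c replicate a its log2 fold change was 0.54 (adjusted p = 0.264). SUZ12 was at 3739, 2563 and 2917 and had 1.02 ± 0.48 (adjusted p = 0.113), and was called in 3 of 19 alternatives, namely by DESeq2 (0.0244), in a fit of these 2 groups alone (0.00423) and with SCNT8c replicate 3 left out (0.00255). JARID2 was at 78.6, 57.5 and 68.1 against 143 to 191 in SCNT4c, with -1.28 ± 0.79 (adjusted p = 0.227), and was called lower in a fit of the 2 groups alone (0.0117) and with SCNT8c replicate 3 left out (0.0420). Between 75 and 230 recovered reads per library lay behind these JARID2 values. The sum of this entry with the unnamed assembled transcripts of its locus had the opposite sign (0.30 ± 0.40, adjusted p = 0.592).

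**Figure D2:**
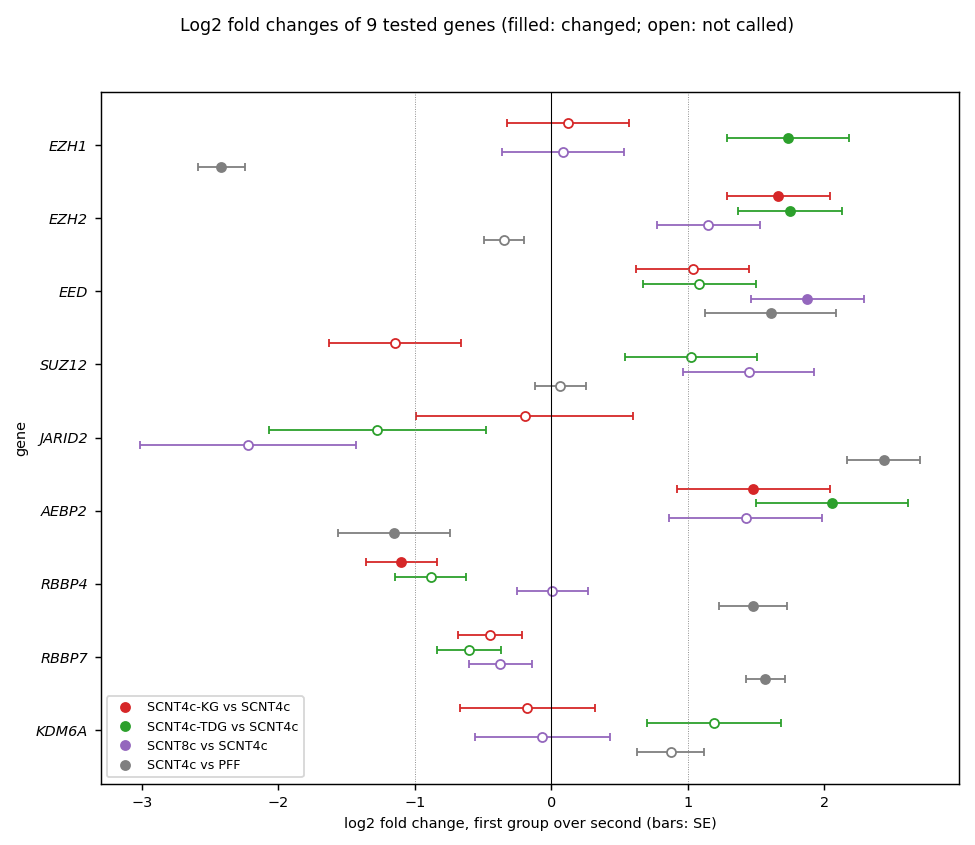
Log2 fold change (horizontal axis, bars are SE from limma) of the 9 tested genes in the 4 comparisons with SCNT4c. Filled points were called changed (adjusted p under 0.05 and more than 2-fold), open points were not, and dotted lines mark 2-fold. EZH2 and AEBP2 were higher in both treated groups, EZH1 in SCNT4c-TDG, and SUZ12 had opposite signs in SCNT4c-KG and SCNT4c-TDG.

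Both treated groups were set against the same SCNT4c libraries, so the treatments were compared with each other directly. SUZ12, the scaffold of PRC2, differed most, with 582 to 745 in SCNT4c-KG and 2563 to 3739 in SCNT4c-TDG. The log2 fold change of SCNT4c-TDG over SCNT4c-KG was 2.17 ± 0.48 (adjusted p = 0.00656), and it held in 20 alternatives with adjusted p-values from 1.4317e-05 to 0.0351. EZH1 was higher by 1.61 ± 0.45 (adjusted p = 0.0224), and this call was lost without SCNT4c-KG replicate 1 (0.106) or any 1 of the SCNT4c-TDG libraries (0.0636 to 0.0819). EZH2 did not differ beyond its error (0.09 ± 0.38, adjusted p = 0.911). Of the 9 genes, 2 were higher in SCNT4c-TDG and 0 lower, beside 7.07% and 9.13% of all features (16.2% in either direction), and 6 did not overlap beside 44.4%. With SCNT8c replicate 3 left out of the fit, 3 were higher, with KDM6A added, and 0 lower, beside 10.5% and 13% of all features (23.5% in either direction). DESeq2 and edgeR also called 0 lower, as did limma at an unadjusted p under 0.05 (count 0). KDM6A, which demethylates H3K27, had 1.37 ± 0.49 (adjusted p = 0.0718), and passed the threshold in 10 of 20 alternatives, among them DESeq2 (0.0133) and a replicate block (0.0305).

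From the 4-cell to the 8-cell stage, EED was the 1 gene of the 9 that was called changed, beside 5.79% of all features (2.62% higher and 3.16% lower). It stood at 883, 2245 and 3343 in SCNT4c and at 8677, 8905 and 4228 in SCNT8c, with a log2 fold change of 1.87 ± 0.41 and an adjusted p of 0.0255. This call was lost without SCNT4c replicate a (0.0766), SCNT4c replicate b (0.0751), SCNT8c replicate 1 (0.101) or SCNT8c replicate 2 (0.0814), and in a fit of the 2 groups alone (0.198). Libraries did not overlap for EED and EZH2, 2 of the 9, beside 23.5% of all features, and the median was 0.08 beside -0.31. Without SCNT8c replicate 3 they did not overlap for 7 of the 9, beside 57.3% of all features, and the median was 0.48 beside -0.24.

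SCNT8c replicate 3 lay near the 4-cell embryos for several subunits. SUZ12 was at 6099.9 and 7833 in SCNT8c replicates 1 and 2 and at 1406 in replicate 3, within the SCNT4c range of 1178 to 1806. AEBP2 was at 5992, 4825 and 1059.7 in the same order, and EZH2 at 1035, 1037 and 375. JARID2 went the other way, at 23.3 and 9.14 in replicates 1 and 2 and at 182 in replicate 3. Without replicate 3, 5 of the 9 genes were called, beside 32.3% of all features (12.4% higher and 19.9% lower). EZH2 (1.64, adjusted p = 0.000303), SUZ12 (2.21, adjusted p = 6.5144e-05), AEBP2 (2.20, adjusted p = 0.00104) and EED were higher, and JARID2 (-3.40, adjusted p = 0.000332) was lower. With replicate 3, the adjusted p-values of EZH2, SUZ12, AEBP2 and JARID2 were 0.0747, 0.0770, 0.114 and 0.0911. The entry named JARID2 rested on 25 and 11 reads in SCNT8c replicates 1 and 2. Without replicate 3, the most abundant of 3 unnamed assembled transcripts at its locus had 0.34 ± 0.44 (adjusted p = 0.578). With replicate 3, the sum of the entries at the JARID2 locus had -0.18 ± 0.40 (adjusted p = 0.799). RBBP4 was at 25076 to 27476 in SCNT8c with a log2 fold change of 0.01 ± 0.26, and neither EZH1 (0.08 ± 0.45) nor KDM6A (-0.07 ± 0.49) was called.

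Between donor fibroblasts and 4-cell embryos, 4 of the 9 genes tested were higher in SCNT4c and 2 lower, where 78.2% of all features were called (39.7% higher and 38.5% lower). Libraries did not overlap for 8 of the 9, beside 84.5%, and the median was 0.87 beside 0.07. EZH1 was at 1164, 1220.1 and 1138 in PFF and fell by 2.42 on the log2 scale (SE 0.17, adjusted p = 2.9694e-05), the largest fall of the set. JARID2, at 26.9, 25.5 and 38.1 in PFF, rose by 2.44 ± 0.27 (adjusted p = 0.000226). RBBP7 (1.57 ± 0.14, adjusted p = 9.1859e-05), RBBP4 (1.48 ± 0.25, adjusted p = 0.00163) and EED (1.61 ± 0.48, adjusted p = 0.0200) also rose. The EED call was lost without PFF replicate 2 (0.0535), PFF replicate 3 (0.0625), SCNT4c replicate b (0.0768) or SCNT4c replicate c (0.0533). AEBP2, at 2487 to 2678 in PFF, had -1.15 ± 0.41 (adjusted p = 0.0385), which was lost in 10 of 17 alternatives, among them every other scaling (adjusted p = 0.256 to 0.703). This comparison depends on scaling, since the median of all features was 0.67 with the same total in each library, 0.96 by edgeR and 1.01 by DESeq2. EZH2, at 418 to 428 in PFF, had -0.34 ± 0.15 as deposited (adjusted p = 0.0695) but 0.69 after quantile normalization and 0.44 by DESeq2, so no direction is given for it. KDM6A was higher in SCNT4c by 0.87 ± 0.24 as deposited (adjusted p = 0.0155), short of the 2-fold limit, and passed it with the same total in each library (1.48), by edgeR (1.65) and by DESeq2 (1.69, adjusted p = 1.3823e-05), but had 0.46 (adjusted p = 0.238) after quantile normalization.

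A ratio within a library cancels the scaling factor, apart from the added 1. The log2 ratio of EZH2 to EZH1 was -1.47 ± 0.06 (SD, n = 3) in PFF, 0.60 ± 0.26 in SCNT4c, 2.14 ± 0.67 in SCNT4c-KG, 0.61 ± 0.24 in SCNT4c-TDG and 1.67 ± 0.16 in SCNT8c. The ratio thus turned from EZH1 to EZH2 between fibroblasts and embryos, was higher again with KDM4A and GSK126 and at the 8-cell stage, and was close to the SCNT4c value under TDG (difference 0.01 ± 0.20, SE). Libraries did not overlap in the first of these comparisons (difference 2.07), for SCNT4c-KG (1.54) or for SCNT8c (1.07), each with a two-sided exact permutation p of 0.1, the smallest that 3 against 3 allows, and 0.182 after adjustment over the 20 ratio comparisons made. The ratio of RBBP4 to RBBP7 was 1.11 ± 0.29 in SCNT4c and 0.46 ± 0.25 in SCNT4c-KG, also without overlap (exact p = 0.1), and overlapped in the other 4 comparisons, except that without SCNT8c replicate 3 the 8-cell libraries (mean 1.65) lay above those of SCNT4c. The ratio of KDM6A to EZH2 was -2.27 ± 0.22 in SCNT4c, -4.10 ± 0.36 in SCNT4c-KG, -2.82 ± 0.21 in SCNT4c-TDG and -3.48 ± 0.68 in SCNT8c. In SCNT8c replicate 3 it was -2.78 against -4.14 and -3.53 in the other replicates, and without replicate 3 the mean was -3.83. For EZH2 to EZH1 the SCNT8c mean without replicate 3 was 1.76, still without overlap with SCNT4c. For SCNT4c-KG and SCNT4c-TDG the KDM6A to EZH2 ratio depends on which transcripts are counted, with the values given beside those transcripts.

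**Figure D3:**
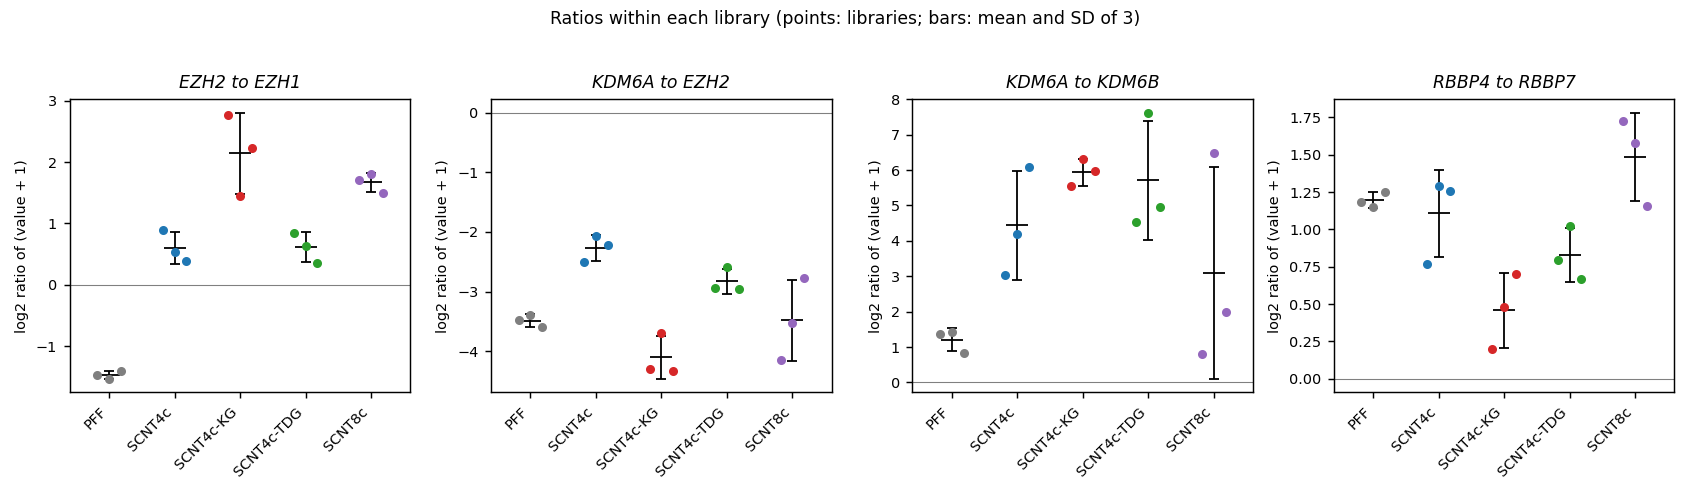
Log2 ratio of (normalized value + 1) between 2 genes in each library (vertical axis). Points are libraries and black marks are the mean and SD of 3. The ratio of EZH2 to EZH1 was below 0 in all PFF libraries and above 0 in all embryo libraries, and the ratio of KDM6A to KDM6B spread widely in embryos, where KDM6B had few or no reads.

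The demethylases had few reads under their own names. KDM6A was at 59.2, 81.3 and 66.4 in SCNT4c, at 45.7, 78.7 and 61.3 in SCNT4c-KG and at 157, 196 and 126 in SCNT4c-TDG. The SCNT4c-TDG libraries lay above all others, and the log2 fold change over SCNT4c was 1.19 ± 0.49 (adjusted p = 0.0744, under 0.05 in 7 of 19 alternatives), from 28 to 256 recovered reads per embryo library. KDM6B was at 13.4, 14.0 and 19.1 in PFF (11 to 16 reads), at 0 in all SCNT4c-KG libraries, and at 0 to 8 reads in SCNT4c and SCNT4c-TDG. At 0 reads, up to 3 reads per library cannot be told from none, so the 4-cell groups cannot be ranked for this gene. SCNT8c libraries were listed at 32.7, 0 and 12.7. Reads from the RefSeq entries LOC110255320 (KDM6A-like, on the Y chromosome) and LOC102159969 (KDM6B-like) could be confused with these genes. The first was at 58.6 to 70.3 in PFF and at most 20.9 in embryos, and the second was at 10.2 to 17.1 in PFF and at 0 in all embryos.

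Each demethylase locus also held 1 assembled transcript without a gene name. At the KDM6B locus it carried more reads than the named gene in all libraries, and at the KDM6A locus only in SCNT4c-KG, SCNT4c-TDG and SCNT8c replicate 1. The transcript at the KDM6A locus was at 1.58, 8.74 and 19.1 in SCNT4c, at 62.1, 149.7 and 103 in SCNT4c-KG and at 486, 264 and 332 in SCNT4c-TDG. All libraries of both treated groups lay above those of SCNT4c, with 38 to 118 and 344 to 581 recovered reads against 2 to 23. Its SCNT4c mean of 9.80 was under the minimum of 10, so it was tested through the groups where it was high. Its folds over SCNT4c depend on the pseudocount, so they are listed only among the flagged results, and their p-values are not given. The transcript at the KDM6B locus was at 261, 275 and 259 in PFF, at 677, 569 and 541 in SCNT4c, at 529, 651 and 517 in SCNT4c-KG, at 94.5, 69.8 and 93.3 in SCNT4c-TDG and at 1193, 1325 and 1092 in SCNT8c. It was lower in SCNT4c-TDG by -2.79 ± 0.32 (adjusted p = 1.3085e-05), and its log2 fold change was 1.02 ± 0.32 (adjusted p = 0.0650) in SCNT8c, whose 3 libraries lay above all of SCNT4c, and 1.08 ± 0.30 (adjusted p = 0.0114) without SCNT8c replicate 3. Over PFF it was higher in SCNT4c by 1.16 ± 0.16 (adjusted p = 0.000757), whereas the entry named KDM6B had more reads in PFF. The files do not give the positions of these transcripts within the locus or say how overlapping reads were assigned, and the locus that they give for KDM6B runs past the gene's RefSeq end and also holds TMEM88 and an antisense gene, so they cannot be said to be RNA of the named genes. The sum of both entries at the KDM6A locus was higher in SCNT4c-TDG than in SCNT4c by 2.71 ± 0.48 (adjusted p = 0.000550). That at the KDM6B locus was lower by 2.75 (SE 0.32, adjusted p = 1.5598e-05). Both differences rest largely on the assembled transcripts. With these sums the difference of SCNT4c-TDG from SCNT4c in the log2 ratio of KDM6A to EZH2 changed sign, from -0.56 ± 0.18 to 0.96 ± 0.23. That of SCNT4c-KG went from -1.84 ± 0.24 to -0.63 ± 0.34, where the libraries overlapped (exact permutation p = 0.2), and that of SCNT4c-TDG in the ratio of KDM6A to KDM6B went from 1.27 ± 1.31 to 5.46 ± 0.31. The JARID2 locus held 3 such transcripts, and its sum had adjusted p-values from 0.362 to 0.812 in the 4 comparisons between embryo groups.

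**Figure D4:**
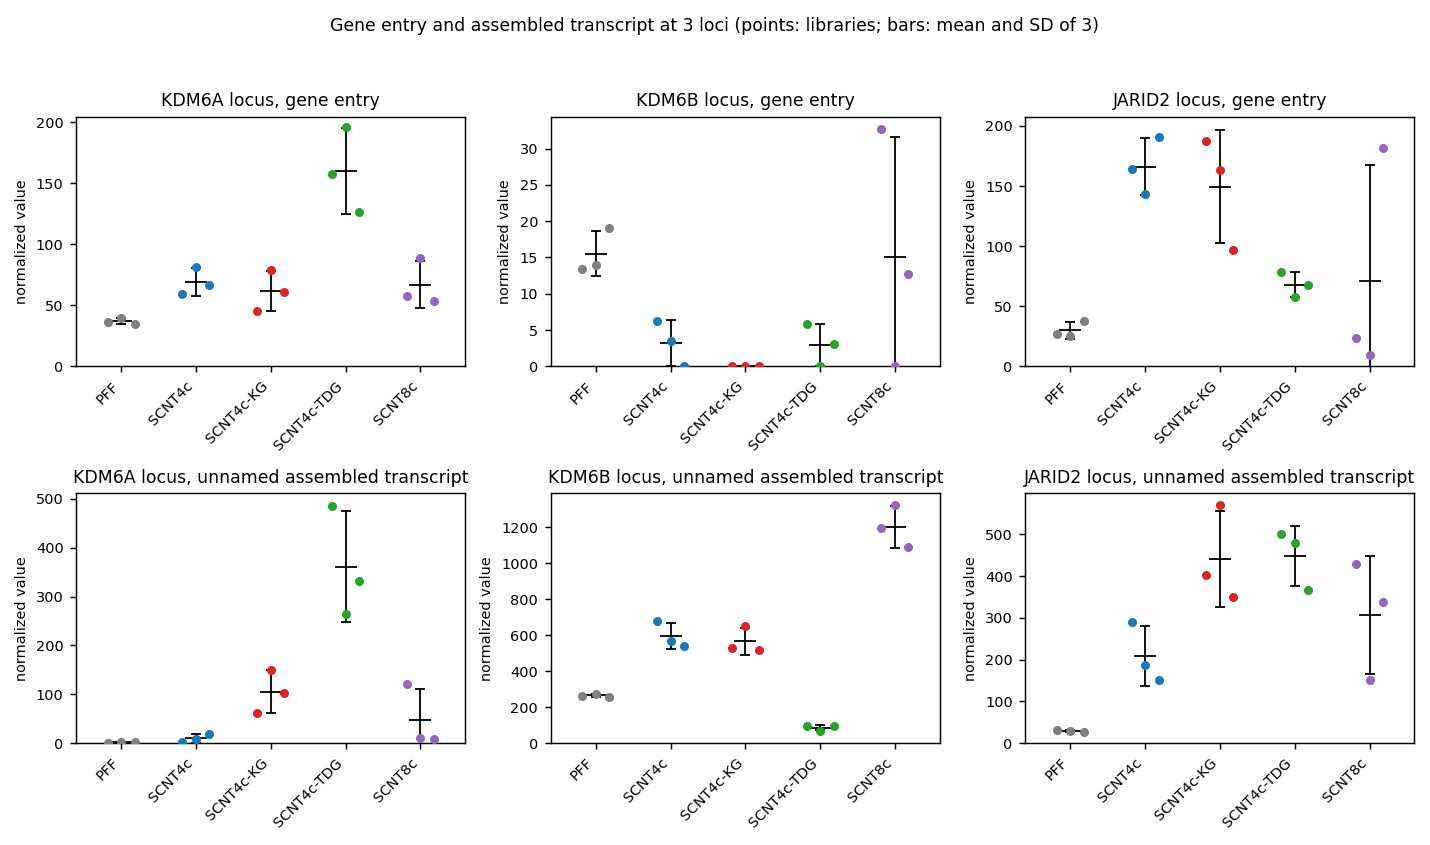
Normalized value (vertical axis, linear from 0) of the named gene (top) and of the assembled transcript without a gene name (bottom) at the loci of KDM6A, KDM6B and JARID2, for JARID2 the most abundant of 3 in embryos. Points are libraries and black marks are the mean and SD of 3. At the KDM6A locus both entries were highest in SCNT4c-TDG, and at the KDM6B locus the assembled transcript was at 69.8 to 94.5 in SCNT4c-TDG against 541 to 677 in SCNT4c.

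Other genes of the Polycomb system were counted by list, namely further PRC2 partners, PRC1, which ubiquitinates histone H2A, the enzymes that remove that ubiquitin, and relatives and partners of KDM6A. Of 46 genes listed, 43 were in the table and 31 were tested in embryos. In SCNT4c-KG 8 rose and 3 fell, beside 17.6% and 19.6% of all features, and in SCNT4c-TDG 8 rose and 7 fell, beside 15.7% and 17.6%. The medians were -0.06 and 0.65 beside -0.30 and -0.26 over all features. With SCNT8c replicate 3 left out of the fit, 8 rose and 6 fell in SCNT4c-KG, beside 20.6% and 23.9%, and 10 rose and 8 fell in SCNT4c-TDG, beside 18.5% and 21.7%. Outside canonical PRC1, this added BMI1 as lower in SCNT4c-KG and LCORL as higher in SCNT4c-TDG. The single lists below hold at most 9 tested genes each, and their counts are descriptions to be read against the shares of the same fit. Of the 4 PRC2 partners tested, 2 fell in both treated groups. PHF19, which binds methylated lysine 36 of histone H3, was at 4860.2, 3361 and 3201 in SCNT4c, at 888 to 952 in SCNT4c-KG and at 387 to 399 in SCNT4c-TDG, with log2 fold changes of -2.01 ± 0.53 (adjusted p = 0.00820) and -3.24 ± 0.53 (adjusted p = 0.000296). MTF2, which ties PRC2 to unmethylated CpG islands, had -1.78 ± 0.33 (adjusted p = 0.000837) and -1.29 ± 0.33 (adjusted p = 0.00804). These 2 partners fell in the same groups in which EZH2 and AEBP2 were called higher.

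Of the 7 core PRC1 genes tested, 1 rose and 1 fell in each treated group. RNF2, a catalytic ubiquitin ligase, was at 6027 to 11900.4 in SCNT4c, at 1137 to 1237 in SCNT4c-KG and at 2714 to 3276 in SCNT4c-TDG (log2 fold changes of -2.77 ± 0.33 and -1.44 ± 0.33). PCGF1, which defines a variant PRC1, was at 953 to 1540.4 in SCNT4c, at 6924 to 10193 in SCNT4c-KG and at 2536 to 5036 in SCNT4c-TDG (2.81 ± 0.32 and 1.46 ± 0.32). Of the 9 canonical PRC1 genes, 4 rose in SCNT4c-KG, and 4 rose and 2 fell in SCNT4c-TDG. With SCNT8c replicate 3 left out of the fit, 4 rose and 2 fell in SCNT4c-KG, and 5 rose and 3 fell in SCNT4c-TDG, in a fit that called 44.5% and 40.2% of all features. PHC1, a Polyhomeotic subunit, was at 0 to 1.66 in SCNT4c, at 77.4 to 95.5 in SCNT4c-KG and at 39.1 to 109.5 in SCNT4c-TDG. It was at or under 3 reads in each SCNT4c library, so no fold is given. CBX6 fell in SCNT4c-TDG by 1.74 on the log2 scale (adjusted p = 0.0311), although its highest library there (388) lay just above the lowest of SCNT4c (387). CBX7 was called lower in SCNT4c-TDG (adjusted p = 0.0152) at 0 to 6 reads per library against 17 to 29 in SCNT4c, so its fold rests on the pseudocount and is not given.

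Of the 4 variant PRC1 genes tested, 2 rose in SCNT4c-KG, and 2 rose and 1 fell in SCNT4c-TDG. RYBP rose in both (1.12 ± 0.32 and 1.06 ± 0.32), YAF2 in SCNT4c-KG (1.44 ± 0.28) and KDM2B, which binds CpG islands, in SCNT4c-TDG (2.71 ± 0.50), while BCORL1 fell there by 1.45 (SE 0.51). Of the 4 genes tested for removal of H2A ubiquitin, USP16 rose in SCNT4c-KG (2.03 ± 0.63), and in SCNT4c-TDG ASXL2 rose (1.12 ± 0.36) and BAP1 fell by 1.46 (SE 0.40). Adjusted p-values of these calls ranged from 0.000774 to 0.0401. None of the 3 tested relatives and partners of KDM6A was called in either treated group by limma, and 0 had an unadjusted p under 0.05. In SCNT8c CBX6 rose and PHF19 fell among the 31, beside 2.62% and 3.16% of all features. PHF19 was at 767 and 343 in SCNT8c replicates 1 and 2 and at 2809 in replicate 3. Without replicate 3, 3 genes rose (CBX6, PHC3 and BMI1) and 4 fell (PHF19, RNF2, PCGF2 and ASXL3), beside 12.4% and 19.9%. LCORL, PHC3, BMI1, PCGF2 and ASXL3 are named after their values were seen.

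**Figure D5:**
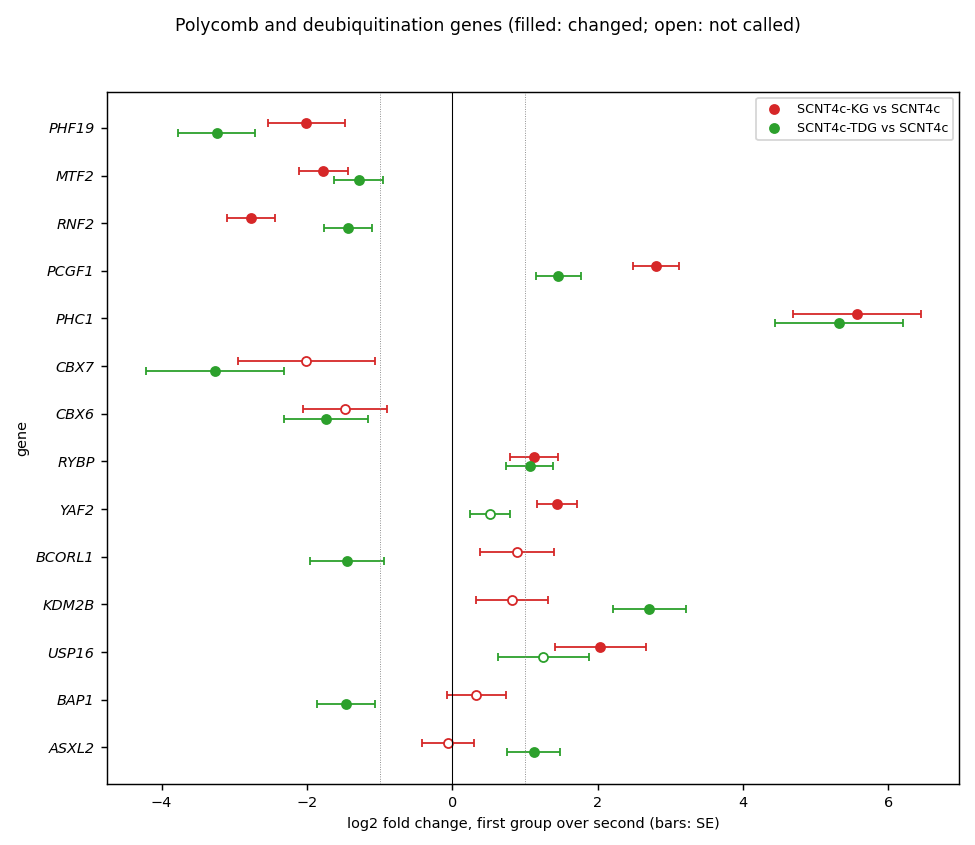
Log2 fold change over SCNT4c (horizontal axis, bars are SE from limma) of the Polycomb and deubiquitination genes named in the text, for SCNT4c-KG (red) and SCNT4c-TDG (green). Filled points were called changed, open points were not, and dotted lines mark 2-fold. PHF19, MTF2 and RNF2 were lower and PCGF1, PHC1 and RYBP higher in both groups, and the positions of PHC1 and CBX7 depend on the pseudocount, since PHC1 had at most 2 reads in SCNT4c and CBX7 at most 6 in the treated groups.

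The genes most like EZH2 over the 12 embryo libraries, by Pearson r of log2 values among 12798 named genes, were YY1 (0.986), ABRAXAS1 (0.980), TTLL5 (0.968), FKBP3 (0.966) and CEBPG (0.965). TTLL5 was at 0 in all SCNT4c libraries and in SCNT8c replicate 3. In the other embryo libraries it was at 4.90 to 45.3, so its r rests on values near the floor. Of the PRC2 genes, AEBP2 was nearest to EZH2, at r = 0.875 and rank 272, followed by EED at 0.604. RBBP7 lay at the other end with r = -0.912, where it was lowest in the groups in which EZH2 was highest. The libraries come from 4 groups and share depth and treatment within each, so these values describe the groups as much as the genes. KDM6A was most like EZH1 among the 10 genes (r = 0.911), and both had their highest embryo values in SCNT4c-TDG.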

How the data were processed

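RNA-seq libraries of PFF and of 4 groups of SCNT embryos were used, 3 per group (15 libraries). By the labels, total RNA was turned into cDNA with a SMARTer kit, and by the methods paired reads of 150 bases were sequenced. The authors used Trimmomatic 0.39 for trimming, STAR 2.5.3a for alignment to Sscrofa11.1, StringTie 2.1.2 for assembly and HTSeq for counting. The strand setting is not given in the sources used here. The deposited values are a normalized signal, the counts divided by 1 factor per library, and in each library division by the step of 1 read gave whole reads for 100% of them (tolerance 0.001).

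The table held 43535 entries, of which 241 with a repeated gene ID were removed. The SCNT4c samples carry conflicting numbers in the labels, and the description of the SCNT4c-KG samples carries the same names as the SCNT4c columns. The group of these columns was therefore taken from the column names and the sample titles. Letters a to c stand for the SCNT4c libraries. The test was limma 3.58.1 (R 4.3.3) with an intensity trend, on log2(value + 1), for features whose mean in the fit was 10 or more. This scale understates the change of low genes. The 12 embryo libraries were fitted together and PFF with SCNT4c in 6 libraries. P-values were adjusted by Benjamini-Hochberg over all features, and a gene was called changed at an adjusted p under 0.05 and more than 2-fold. Adjusted p-values are from limma unless another tool is named. Ratios were compared with two-sided exact permutation tests (Python 3.11.15, scipy 1.17.1). Alternatives were a pseudocount of 0.1 or 10, other minimum means, other scalings, edgeR 4.0.16 and DESeq2 1.42.0 on the recovered reads, other sets of libraries in the fit, locus sums and each library left out.

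All 10 genes of the set and, of each further list, at most 2 genes that rose and 2 that fell most in SCNT4c-KG or SCNT4c-TDG are named. One result that this rule selects is not reported here. The genes and lists were chosen with earlier results of these data known. In a test on simulated data for SCNT4c-KG against SCNT4c (18942 genes, of which 200 were changed), the fit called 16.2% of changed genes and 26.7% of those changed 8-fold, with 0 wrong calls of 31. The data themselves had 37.2% of features called, so far more genes changed than in the simulation. The adjustment of p-values depends on that share, so these rates do not carry over to the reported tests. Positions, exon lengths and the sequences before gene starts are from the RefSeq annotation and genome of Sscrofa11.1. Protein sequences were not used here.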

Additional observations from a re-analysis of the deposited data

Results flagged for a closer look

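SUZ12 and EZH1 differed between SCNT4c-TDG and SCNT4c-KG. The direct comparison of SCNT4c-TDG with SCNT4c-KG, which is the difference between both effects over the shared SCNT4c libraries, gave a log2 value of 2.17 for SUZ12 (adjusted p = 0.00656) and 1.61 for EZH1 (adjusted p = 0.0224). All SCNT4c-TDG libraries were above all SCNT4c-KG libraries for both genes. The EZH1 call was lost without SCNT4c-KG replicate 1 (adjusted p = 0.106) or any 1 of the SCNT4c-TDG libraries (0.0636 to 0.0819).

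The assembled transcript without a gene name at the KDM6A locus lay outside the gene entries that the set was chosen from. Its log2 fold change over SCNT4c was 3.64 in SCNT4c-KG and 5.46 in SCNT4c-TDG, with 38 to 118 and 344 to 581 recovered reads per library against 2 to 23 in SCNT4c. Its SCNT4c mean of 9.80 was under the minimum of 10, and it was tested through the groups where it was high. The size of both folds therefore depends on the pseudocount, and only their direction is read here.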

How the results depend on the processing

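Of 837 recomputed log2 fold changes of single genes, 716 kept their direction and their side of the threshold, 53 passed it anew, 35 no longer passed it and 33 changed sign. The number of the 9 genes changed in SCNT4c-TDG was 3 as reported, 5 with quantile normalization, equal library totals or all 15 libraries in one fit, 6 by DESeq2 and 7 in a fit of the 2 groups alone or with SCNT8c replicate 3 left out of the joint fit, an alternative chosen after seeing the data. Leaving it out gave 5 instead of 3 in SCNT4c-KG, beside 44.5% instead of 37.2% of all features. These fits of SCNT4c-TDG called 32.9% to 47.6% of all features, most in the fit of the 2 groups alone. For SCNT8c it was 1 as reported (beside 5.79% of all features), 2 by edgeR (3.47%), 4 by DESeq2 (14.4%) and 3 with all 15 libraries (11.2%). It was 0 in a fit of the 2 groups alone, which called 0 features in all. With each library left out it was 0 to 5, in fits that called 0.164% to 32.3% of all features. It was 5 without SCNT8c replicate 3 and 0 without SCNT4c replicate a or b or SCNT8c replicate 1 or 2. For SCNT4c-TDG against SCNT4c-KG it was 2 as reported, beside 16.2% of all features. With each library left out it was 1 to 2, beside 9.45% to 13.3%. Against PFF it was 6 as reported, beside 78.2% of all features, and 4 to 7 over 17 alternatives. With the 2-fold limit kept, these called 55.1% to 82.6% of all features. The causes were not tested.

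Signs changed for KDM6A in SCNT4c-KG (0.0053 by DESeq2, 1.03 with locus sums), JARID2 with locus sums (0.48 in SCNT4c-KG, 0.30 in SCNT4c-TDG), KDM6A in SCNT8c (0.19 with quantile normalization, 0.035 by edgeR, 0.22 by DESeq2, 0.41 with locus sums), RBBP7 in SCNT4c-TDG against SCNT4c-KG (0.41 with quantile normalization, 0.21 with the same total, 0.032 by edgeR) and EZH2 against PFF (0.69 with quantile normalization, 0.28 with the same total, 0.40 by edgeR, 0.44 by DESeq2). With each library left out, log2 fold changes in SCNT4c-KG ranged from -0.21 to 0.53 for EZH1, from -0.36 to 0.022 for KDM6A and from -0.39 to 0.088 for JARID2. In SCNT8c they ranged from -0.14 to 0.48 for EZH1, from -0.28 to 0.22 for RBBP4 and from -0.29 to 0.069 for KDM6A. In SCNT4c-TDG against SCNT4c-KG they ranged from -0.015 to 0.21 for EZH2 and from -0.055 to 0.15 for EED, and against PFF from -0.072 to 0.24 for SUZ12. 0 of these 33 values belonged to a gene called in the fit as reported.

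With a pseudocount of 0.1, the difference in the log2 ratio of KDM6A to KDM6B became 3.55 for SCNT4c-KG and -2.25 for SCNT4c-TDG against SCNT4c-KG. With locus sums, an alternative chosen after seeing the data, it became 5.46 for SCNT4c-TDG, 4.35 for SCNT4c-TDG against SCNT4c-KG and -0.089 for SCNT4c against PFF, and that of KDM6A to EZH2 became -0.63 for SCNT4c-KG and 0.96 for SCNT4c-TDG.

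Replicate numbers of the embryo groups were not used to pair the libraries. Deviations of same-numbered libraries correlated between -0.0611 and 0.195, the highest for replicate 3 of SCNT4c-TDG and SCNT8c. Differently numbered libraries were not set beside them, so this check cannot decide on a pairing. With a replicate block, SCNT4c-TDG against SCNT4c-KG gave 3 changed genes of the 9, with KDM6A added (adjusted p = 0.0305). The same fit called 26.5% of all features. The block could not be fitted for SCNT4c, whose numbers conflict. Where a library was left out, both remaining ones were assumed to vary like the other groups. Depth limits KDM6A, KDM6B and JARID2, whose lowest embryo libraries had 28, 0 and 11 recovered reads.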
